A study of Mus musculus with 26 samples.

Results

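The TALE homeobox genes *Meis1*, *Meis2*, *Meis3*, *Pbx2*, *Pbx3*, *Pbx4*, *Pknox1*, *Pknox2* and *Tgif1* were examined for chromatin marks and for binding of Runx3, Brn3a and Isl1 in TrkC neurons, the proprioceptive neurons of the dorsal root ganglia (DRG) that sense muscle stretch. A peak was assigned to a gene when its midpoint lay in the gene body or within 200 kb of it, and the 9 windows did not overlap. Of the 159182 peaks of the series, 631 fell in these windows. They comprised 257 of 64227 ATAC peaks, 156 of 32655 H3K27Ac peaks, 57 of 13443 Runx3 peaks, 115 of 32822 Brn3a peaks and 46 of 16035 Isl1 peaks.

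The series holds 26 samples of DRG neurons from E11.5 mouse embryos that carry BAC-E-GFP, a transgene in which GFP is driven by a large segment of the *Runx3* locus. There were 3 samples of ATAC-seq, which maps open chromatin, and CUT&RUN samples with antibodies to H3K27Ac (5), Runx3 (8), Brn3a (2) or Isl1 (3), besides 5 with normal rabbit serum as control. DRG of many embryos were pooled per sample, GFP-positive cells were sorted, and for a pair of experiments the methods describe magnetic separation of TrkC-positive cells from GFP-positive or WT mice instead. All groups share the same stage and no mutant was profiled. The deposited lists give the position of each consensus peak but no score, read count or value per sample. The depth is therefore unknown, and every interval or p below treats peaks as units and describes counting error in the lists, not the spread between embryos.

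TALE proteins are homeobox transcription factors with a loop of extra residues in the homeodomain. Pbx proteins bind DNA together with Hox proteins, Meis and Pknox (Prep) proteins pair with Pbx and help to keep it in the nucleus, and Tgif1 is a repressor that can occupy the same short sequence as Meis. In the developing nervous system Meis and Pbx factors take part in segmental identity and in the differentiation of neurons, which is why their loci are of interest in cells that express the POU factor Brn3a and the LIM factor Isl1.

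Binding at these loci took 2 shapes. The long genes *Meis1*, *Meis2*, *Pbx3* and *Pknox2*, which span over 100 kb each, held 80 Brn3a peaks, 48 of them in the gene body and 66 with the Brn3a motif. The shorter genes *Meis3*, *Pbx2*, *Pbx4*, *Pknox1* and *Tgif1* lay among other genes, and 25 of the 35 Runx3 peaks and 23 of the 35 Brn3a peaks in their windows sat at promoters, mostly of those neighbours. The nearest TSS (transcription start site) was a member's own for 3 of these 35 Runx3 peaks and 5 of these 35 Brn3a peaks. The division by gene length was made after the values were seen and was not tested. The window of *Meis1* held no other protein-coding gene and those of *Meis2* and *Pbx3* held 1 each, while *Pbx2* and *Pbx4* had 15 neighbours each, *Meis3* 12, *Pknox2* 8, *Pknox1* 6 and *Tgif1* 4.

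**Figure D1:**
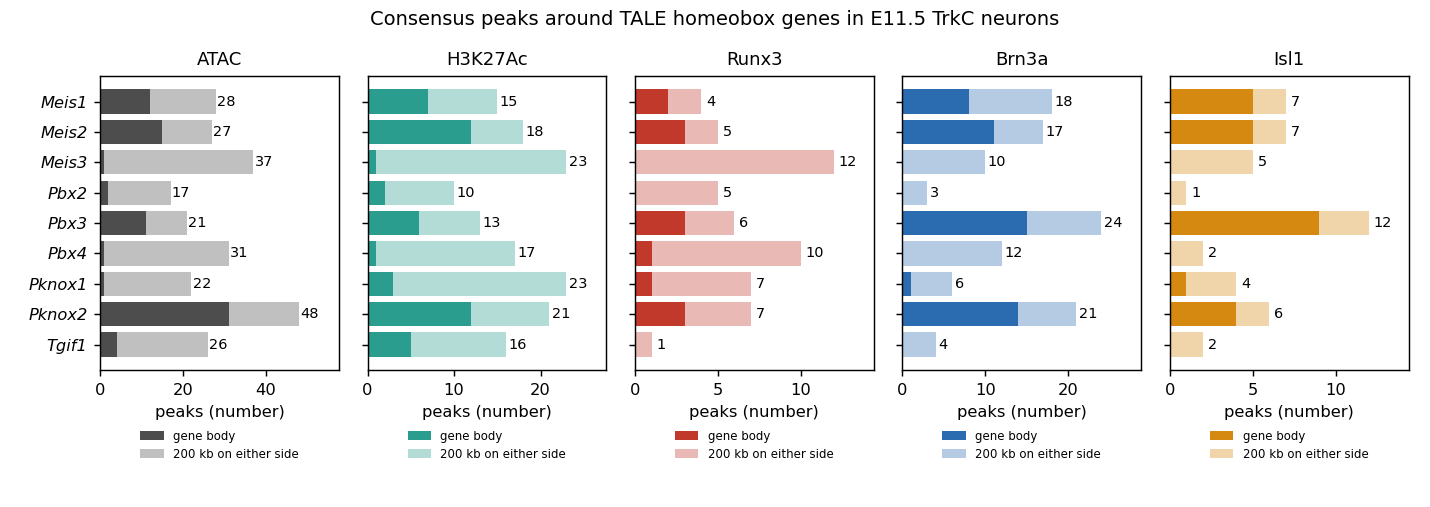
Number of consensus peaks (x axis) around each TALE gene (y axis), a panel per list, with peaks in the gene body in the dark colour and those in the 200 kb on either side in the light colour. *Pknox2* had the most ATAC peaks (48, 31 of them in its body) and *Pbx3* the most Brn3a (24) and Isl1 (12) peaks, whereas none of the 12 Runx3 peaks around *Meis3* lay in its body.

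Among the Meis genes, *Meis1* (mm10 chromosome 11, 18879817 to 19018985, minus strand) had 28 ATAC, 15 H3K27Ac, 4 Runx3, 18 Brn3a and 7 Isl1 peaks. *Meis2* (chromosome 2, 115863064 to 116065839, minus strand) was similar, with 27 ATAC, 18 H3K27Ac, 5 Runx3, 17 Brn3a and 7 Isl1 peaks. *Meis3* (chromosome 7, 16175090 to 16186504, plus strand) had more ATAC (37), H3K27Ac (23) and Runx3 (12) peaks but 10 Brn3a and 5 Isl1 peaks. The *Meis3* body is only 11.4 kb long and held 1 ATAC and 1 H3K27Ac peak and no TF peak, so the TF peaks of its window all lay outside the gene.

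Among the Pbx genes, *Pbx3* (chromosome 2, 34171457 to 34373142, minus strand) had 21 ATAC, 13 H3K27Ac, 6 Runx3, 24 Brn3a and 12 Isl1 peaks. Its 34.9 ATAC peaks per Mb were near the median of 37.8 over all protein-coding genes. *Pbx4* (chromosome 8, 69832491 to 69872292, plus strand) had 31 ATAC, 17 H3K27Ac, 10 Runx3, 12 Brn3a and 2 Isl1 peaks. *Pbx2* (chromosome 17, 34591266 to 34597400, plus strand) had 17 ATAC, 10 H3K27Ac, 5 Runx3, 3 Brn3a and 1 Isl1 peaks, the fewest ATAC, H3K27Ac, Brn3a and Isl1 peaks of the 9 windows.

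The Pknox genes, partners of Pbx, differed from each other. *Pknox2* (chromosome 9, 36890982 to 37147407, minus strand) had 48 ATAC, 21 H3K27Ac, 7 Runx3, 21 Brn3a and 6 Isl1 peaks. *Pknox1* (chromosome 17, 31564734 to 31607693, plus strand) had 22 ATAC, 23 H3K27Ac, 7 Runx3, 6 Brn3a and 4 Isl1 peaks. *Tgif1* (chromosome 17, 70844205 to 70853546, minus strand), the repressor, had 26 ATAC and 16 H3K27Ac peaks but only 1 Runx3, 4 Brn3a and 2 Isl1 peaks, none of them carrying its motif.

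All 9 genes had open and acetylated promoters, and 5 of them were bound there by Runx3 and by Brn3a. A promoter was the region within 1 kb of a TSS of any GENCODE transcript, and a peak was placed in it by its midpoint. An ATAC peak lay in an own promoter of 9 of 9 members, beside 64.8% of the 21938 protein-coding genes, and an H3K27Ac peak in 9 of 9, beside 58.3%. Runx3 lay in an own promoter of 5 members (*Meis1*, *Meis2*, *Pbx3*, *Pbx4* and *Pknox1*), beside 27.1% of all genes. Brn3a lay in an own promoter of the same 5 genes, beside 22.2%, and Isl1 in those of *Pbx3* and *Pknox1*, beside 5.42%. No TF peak lay in an own promoter of *Meis3*, *Pbx2*, *Pknox2* or *Tgif1*. The members had from 5 (*Pbx2*) to 16 (*Meis2*) annotated starts each, and a gene with more starts has more chances of such a peak. The shares over all genes were not matched for the number of starts.

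At 4 of the 5 promoters Runx3 and Brn3a met at the gene's main start, and the Brn3a peak there had no Brn3a motif. RBS is the Runx binding site, which reads ACCACA or else GCCACA, or either of these with a G in the fourth place, on either strand, and V$BRNF and V$LHXF are the marks that the deposited lists give for Brn3a and Isl1 motifs. The *Meis1* promoter peak of Runx3 (chromosome 11, 19018877 to 19019109) held 1 RBS and its midpoint lay 8 bp from a TSS. The *Meis2* promoter peak (chromosome 2, 116065685 to 116065918) held 1 RBS, 38 bp from a TSS. *Pbx4* had the richest promoter peak, with 3 RBS (chromosome 8, 69832290 to 69832843), 58 bp from a TSS. *Pknox1* had 2 Runx3 peaks at its start, one with no RBS (chromosome 17, 31564339 to 31564622) that overlapped Brn3a and one with 1 RBS (31564693 to 31565006) that did not. All of these peaks overlapped ATAC and H3K27Ac. The promoter stretch of *Meis2* upstream of its annotated start is shown with its RBS in capitals, on the plus strand of mm10; the part of the *Pbx4* peak that holds the RBS lies within the transcribed region and is not shown.
Meis2 promoter, chr2:116065840-116065918: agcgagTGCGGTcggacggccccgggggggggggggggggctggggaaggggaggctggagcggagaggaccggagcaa

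*Pbx3* was bound at an internal promoter rather than at its start. Its main start carried ATAC and H3K27Ac peaks without any TF peak. The Runx3 peak (chromosome 2, 34288681 to 34289043) lay 10 bp from the start of a shorter transcript inside the gene, had no RBS, and overlapped Brn3a with V$BRNF, Isl1 with V$LHXF, ATAC and H3K27Ac. The 191 bases of this peak that lie outside annotated exons are AT-rich, with 36.1% G and C, and contain no RBS.
Pbx3 internal promoter, chr2:34288853-34289043: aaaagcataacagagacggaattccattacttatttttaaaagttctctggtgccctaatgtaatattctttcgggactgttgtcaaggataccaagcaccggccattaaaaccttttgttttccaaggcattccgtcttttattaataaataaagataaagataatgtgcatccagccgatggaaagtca

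A Runx3_RBS peak that overlapped both Brn3a_BRNF and Isl1_LHXF, that is, each TF together with its own motif, occurred in *Meis1*, *Meis2* and *Pbx3*, once in an intron of each. Such a site lay in the windows of 3 of 9 members, beside 19.0% of all protein-coding genes. At least 1 Runx3_RBS peak lay in the windows of 8 members, beside 77.5% of genes, at least 1 Brn3a_BRNF peak in 8, beside 80.8%, and at least 1 Isl1_LHXF peak in 7, beside 66.3%, so by presence alone the members stood close to genes at large. The 3 triple sites are shown because all TFs meet there, as the plus strand of mm10 with RBS in capitals.
Pbx3 intron, chr2:34249611-34249910: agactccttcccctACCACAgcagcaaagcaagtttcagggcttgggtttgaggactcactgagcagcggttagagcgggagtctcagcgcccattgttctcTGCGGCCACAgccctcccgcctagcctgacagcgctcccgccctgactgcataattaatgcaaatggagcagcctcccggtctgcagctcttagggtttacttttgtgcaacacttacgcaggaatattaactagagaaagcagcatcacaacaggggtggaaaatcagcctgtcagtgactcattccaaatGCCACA
Meis1 intron, chr11:18930242-18930541: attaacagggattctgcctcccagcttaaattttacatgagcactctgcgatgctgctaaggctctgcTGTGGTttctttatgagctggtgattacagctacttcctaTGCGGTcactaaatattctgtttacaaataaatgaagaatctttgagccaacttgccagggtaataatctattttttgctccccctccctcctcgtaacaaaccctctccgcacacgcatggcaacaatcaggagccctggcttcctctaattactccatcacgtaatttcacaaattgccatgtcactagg
Meis2 intron, chr2:115884309-115884504: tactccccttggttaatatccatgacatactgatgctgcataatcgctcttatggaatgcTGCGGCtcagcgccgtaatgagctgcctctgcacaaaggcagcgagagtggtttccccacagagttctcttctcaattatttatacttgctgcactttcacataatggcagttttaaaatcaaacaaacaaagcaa

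The *Pbx3* site had 4 RBS, 2 of which overlap each other in a 10-base stretch, and lay in open chromatin under the widest H3K27Ac peak of the gene body (chromosome 2, 34249345 to 34250437, 1093 bp). Its sequence also contained ATAATTAAT, a core sequence to which Brn3a is known to bind, and 2 copies of TGACAG, the short sequence recognised by Meis, Pknox and Tgif proteins. The *Meis2* site (chromosome 2, 115884309 to 115884504) had 1 RBS, ATAC and H3K27Ac, and lay next to another open and acetylated Runx3 peak with 1 RBS (115883611 to 115883850), which overlapped Isl1_LHXF and Brn3a without V$BRNF. The *Meis1* peak (chromosome 11, 18930236 to 18930547) had 2 RBS but itself overlapped neither ATAC nor H3K27Ac. Merged with the Brn3a and Isl1 peaks that overlap it, the *Meis1* region touched an ATAC peak and no H3K27Ac peak. The search for ATAATTAAT was added after these sequences had been seen. It was found in 4 of 72 Brn3a_BRNF peaks of the members (5.56%) and in 6.03% of the 23670 Brn3a_BRNF peaks of the series. Among Brn3a peaks without the mark it was in 0 of 43 of the members and 0.0109% of 9152 of the series. V$BRNF is itself a call of a Brn3a motif, so this contrast can follow from how the mark is defined and says nothing about binding.

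The Runx3 peaks with the most RBS of their windows, the lowest position where tied, lay in *Meis1* and *Pknox2* and downstream of *Meis2*. Further peaks with RBS are not listed. The windows of *Pbx3* and *Pknox2* each held 4 sites of Runx3_RBS and Brn3a_BRNF without Isl1_LHXF. Those of *Pbx3* at 34147322 to 34147732 and 34237758 to 34238191 (chromosome 2) had neither ATAC nor H3K27Ac. In *Meis1*, a peak with 2 RBS in the 3′ untranslated region (chromosome 11, 18883444 to 18883771) overlapped Brn3a_BRNF and Isl1 without V$LHXF, and was open and acetylated. Downstream of *Meis2*, a peak with 1 RBS and Brn3a_BRNF (chromosome 2, 115860187 to 115860491) was likewise open and acetylated. In *Pknox2*, which had no TF at its promoter, the Runx3 peak with the most RBS (2) lay in an intron (chromosome 9, 37008093 to 37008311) with Brn3a_BRNF and ATAC but no H3K27Ac. Both stretches carry their RBS in capitals.
Meis2 downstream, chr2:115860189-115860488: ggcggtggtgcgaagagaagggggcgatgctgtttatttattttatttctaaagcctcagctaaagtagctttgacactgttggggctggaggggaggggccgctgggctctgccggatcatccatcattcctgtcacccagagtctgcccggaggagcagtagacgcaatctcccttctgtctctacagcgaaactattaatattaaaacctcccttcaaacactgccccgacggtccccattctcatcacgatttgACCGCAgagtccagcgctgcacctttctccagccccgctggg
Pknox2 intron, chr9:37008093-37008311: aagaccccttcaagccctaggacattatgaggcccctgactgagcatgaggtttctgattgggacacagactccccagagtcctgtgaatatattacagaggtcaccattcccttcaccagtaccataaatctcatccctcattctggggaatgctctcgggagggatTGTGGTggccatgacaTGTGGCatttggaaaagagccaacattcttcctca

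**Figure D2:**
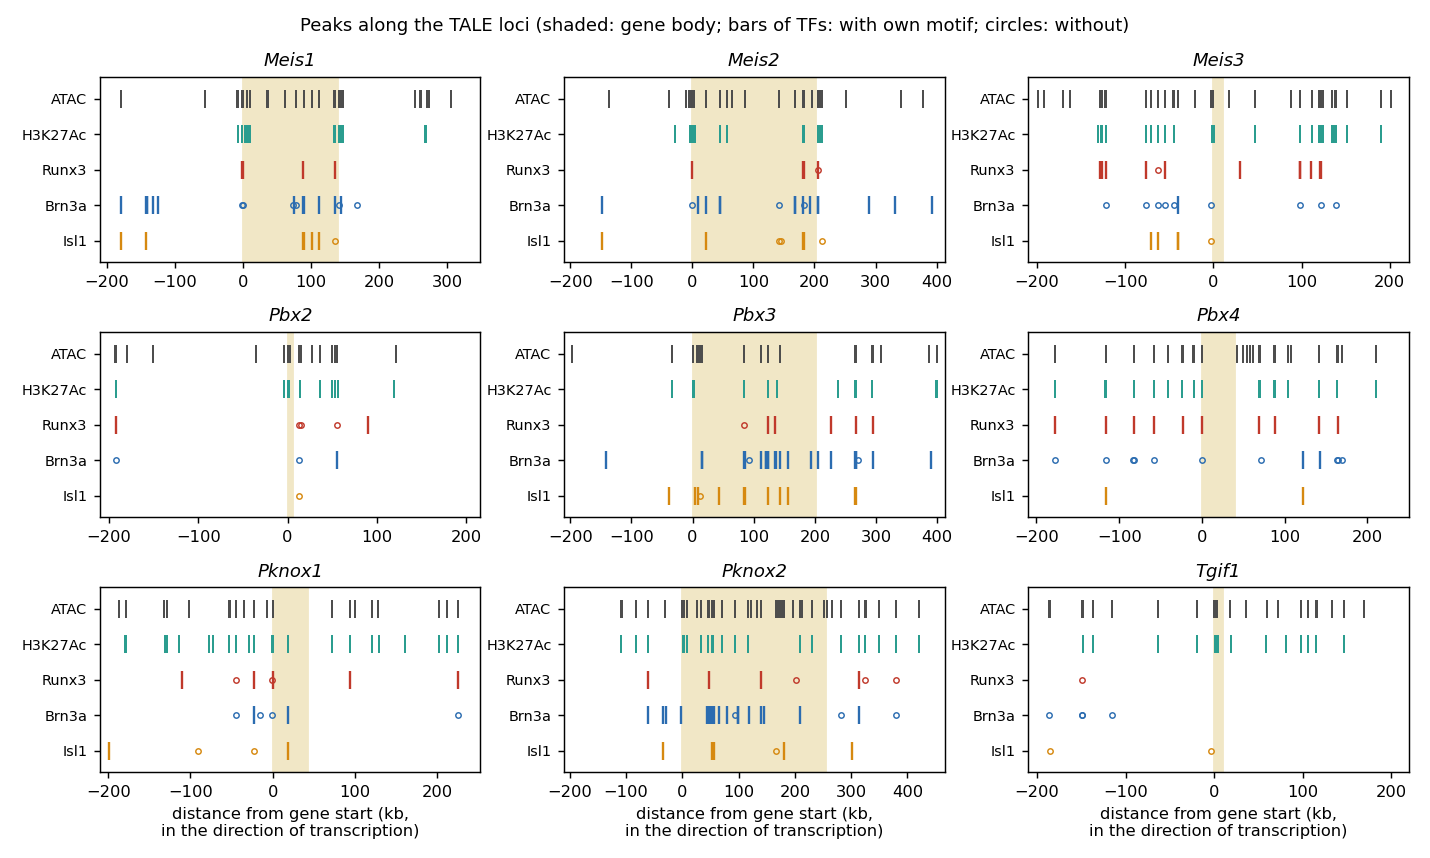
Position of every peak around the 9 genes, as distance from the gene start in kb in the direction of transcription (x axis), a row per list, with the gene body shaded. Vertical bars of the TF rows are peaks with the TF's own motif and circles those without. Brn3a bars lie in the bodies of *Meis1* (5), *Meis2* (8), *Pbx3* (14) and *Pknox2* (13), with wide gaps in *Meis1* and *Meis2*. The Brn3a peaks around *Meis3*, *Pbx4* and *Tgif1* are mostly circles outside the gene.

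The Brn3a peaks carried V$BRNF in 66 of 80 cases in the long loci, against 6 of 35 in the short loci, a split that was not tested. V$BRNF was marked in 22 of 24 Brn3a peaks of *Pbx3*, 18 of 21 of *Pknox2*, 14 of 17 of *Meis2* and 12 of 18 of *Meis1*. It was marked in 2 of 12 of *Pbx4*, 2 of 6 of *Pknox1*, 1 of 10 of *Meis3*, 1 of 3 of *Pbx2* and 0 of 4 of *Tgif1*. Over all members the share was 62.6% (72 of 115, 95% Wilson interval 53.5 to 70.9%), beside 72.1% in the whole list. Position moved with motif: V$BRNF was in 10 of 33 promoter Brn3a peaks (30.3%, 17.4 to 47.3%), beside 34.4% in the list, and in 62 of 82 peaks in introns/intergenic regions (75.6%, 65.3 to 83.6%), beside 80.2%. Of the 33 promoter Brn3a peaks, 22 overlapped Runx3 (66.7%), beside 56.4% of promoter Brn3a peaks in the list, 29 ATAC (87.9%), beside 84.2%, and 29 H3K27Ac (87.9%), beside 79.3%.

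Of the 82 Brn3a peaks of the members away from promoters, 40 overlapped ATAC (48.8%), beside 37.9% of such peaks in the list, and 25 overlapped H3K27Ac (30.5%), beside 15.7%. Of the 70 Brn3a peaks away from promoters in the 4 long loci, 59 had V$BRNF, 30 overlapped ATAC and 18 H3K27Ac. In the 5 short loci there were 12 such peaks, of which 3 had V$BRNF, 10 overlapped ATAC and 7 H3K27Ac. In *Pbx3*, 6 of the 21 Brn3a peaks away from promoters overlapped ATAC and 5 H3K27Ac, and in *Meis2* 9 of 15 overlapped ATAC and 6 H3K27Ac.

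Runx3 peaks in the windows mostly had RBS and were mostly nearer to other genes than to the members. Of the 57 Runx3 peaks, 45 had RBS (78.9%, 66.7 to 87.5%), beside 71.4% in the list, and 32 lay in a promoter (56.1%), beside 46.0% in the list. For 37 of the 57 the nearest TSS belonged to another gene. *Pbx4* had RBS in 10 of 10 peaks and *Meis3* in 11 of 12, and 8 and 7 of these peaks lay in promoters, of which only the *Pbx4* promoter peak belonged to a member. The peaks with the most RBS of these windows were at other genes, 5 RBS in *Inafm1* for *Meis3* (chromosome 7, 16272696 to 16273128) and 5 RBS at *Zfp963* for *Pbx4* (chromosome 8, 69749570 to 69750195), where a peak at *Gm20422* (69774616 to 69775066) also had 5 RBS. The richest for *Pbx2* was a peak with 3 RBS in an intron of *Tnxb* (chromosome 17, 34681119 to 34681365) without ATAC or H3K27Ac, and for *Pknox1* an intergenic peak with 2 RBS nearest to *Sik1* (chromosome 17, 31790629 to 31791043). The single Runx3 peak around *Tgif1* was at the *Myl12a* promoter and had no RBS.

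Isl1 peaks carried V$LHXF and lay in promoters at shares near those of the whole list. Of the 46 Isl1 peaks, 34 had V$LHXF (73.9%, 59.7 to 84.4%), beside 71.4% in the list, and 5 lay in promoters (10.9%), beside 9.92%, 3 of them in the *Pbx3* window. *Pbx3* had V$LHXF in 11 of 12 peaks, *Meis1* in 6 of 7, *Pknox2* in 5 of 6, *Meis3* in 4 of 5 and *Meis2* in 4 of 7.

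**Figure D3:**
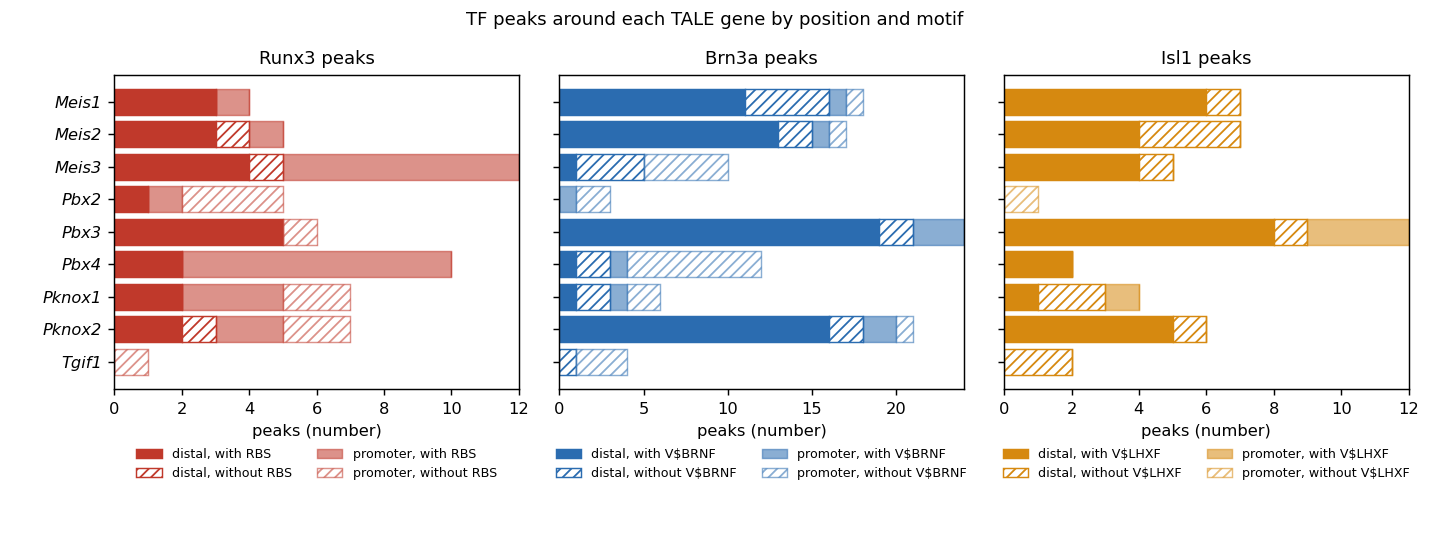
Number of Runx3, Brn3a and Isl1 peaks (x axis) around each TALE gene (y axis), with filled segments for peaks with the TF's own motif and hatched segments for peaks without it, in the full colour for introns/intergenic regions and the pale colour for promoters. Promoter Brn3a peaks were hatched in 5 of 5 cases around *Meis3*, 8 of 9 around *Pbx4* and 3 of 3 around *Tgif1*, whereas 19 of 21 Brn3a peaks away from promoters around *Pbx3* were filled.

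In 7 of the 9 gene bodies the widest H3K27Ac peak lay in a promoter, and in *Meis2* and *Pbx3* in an intron. In the 5 short genes all 12 H3K27Ac peaks of the bodies lay in promoters, so only the 4 long genes could have it elsewhere. The share over all genes was not computed. The H3K27Ac peaks had a median width of 902 bp, beside 716 bp in the list. The widest over a gene body was 3295 bp in *Meis1* (chromosome 11, 19014274 to 19017568), 368 bp from a TSS and without an overlapping ATAC peak, followed by 2432 bp in *Pknox2* (chromosome 9, 37144893 to 37147324), 1696 bp in *Meis3* (chromosome 7, 16174625 to 16176320) and 1688 bp in *Tgif1* (chromosome 17, 70848535 to 70850222). *Pknox1* had 1478 bp (chromosome 17, 31582444 to 31583921) at an internal start that was bound by Brn3a_BRNF and Isl1_LHXF. *Pbx2* had 1228 bp (chromosome 17, 34592702 to 34593929) and *Pbx4* 1024 bp (chromosome 8, 69832226 to 69833249), both at promoters. In *Meis2* the widest peak, 1172 bp (chromosome 2, 116020374 to 116021545), lay in an intron with ATAC and Brn3a, and in *Pbx3* it was the one over the triple site. Outside the bodies there were wider peaks in the windows of both, 2155 bp downstream of *Meis2* (chromosome 2, 115859025 to 115861179) and 1309 bp in the *Pbx3* window (chromosome 2, 33974105 to 33975413), named after their values were seen. The same held for *Pbx2* (3648 bp), *Tgif1* (3482 bp), *Meis3* (2529 bp), *Pknox1* (1967 bp) and *Pbx4* (1807 bp). Only in *Meis1* and *Pknox2* was the widest peak of the window that of the body. No width can be read as signal, since the lists carry none.

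The next comparisons ask how openness, acetylation and TF binding go together at these loci. ATAC peaks in promoters were marked by H3K27Ac in 90 of 104 cases (86.5%, 78.7 to 91.8%), against 68 of 153 (44.4%, 36.8 to 52.4%) in introns/intergenic regions. The odds ratio was 7.97 (95% interval 4.07 to 16.5, Fisher's exact test, two-sided, adjusted p = 2.3e-11 by Benjamini-Hochberg over the 6 tests of the report). In the whole lists the shares were 79.6% and 27.5%. The difference had the same direction in all 9 loci, from 10 of 11 against 1 of 6 around *Pbx2* to 9 of 12 against 7 of 10 around *Pknox1*.

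Away from promoters, ATAC peaks with a TF peak carried H3K27Ac in 29 of 51 cases (56.9%, 43.3 to 69.5%), against 39 of 102 without (38.2%, 29.4 to 47.9%). The odds ratio of 2.12 (1.02 to 4.47) did not pass the threshold of 0.05 after adjustment (Fisher's exact test, p = 0.038, adjusted p = 0.067). Over the whole lists the shares were 37.1% and 23.3%, in the same direction. The call rests on single loci and settings: the adjusted p was 0.031 without *Pknox2* and 0.025 without *Tgif1*, and it was 0.037 when the test was stratified by locus. In the other direction, it was 0.22 without *Meis2*, 0.19 without *Meis3* and 0.47 within 50 kb of the gene body (odds ratio 1.53). *Meis3*, with 7 of 8 against 6 of 15, and *Meis2*, with 7 of 10 against 3 of 12, had the widest gaps, and *Tgif1* went the other way with 0 of 2 against 6 of 11.

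Brn3a peaks away from promoters were open more often where Isl1 was bound as well. They overlapped ATAC in 18 of 24 cases with Isl1 (75.0%, 55.1 to 88.0%), against 22 of 58 without (37.9%, 26.6 to 50.8%). The odds ratio was 4.81 (1.54 to 17.2, Fisher's exact test, adjusted p = 0.0098), and the shares in the whole list were 57.9% and 27.8%. *Meis1* contributed 5 of 6 against 3 of 10, *Meis2* 4 of 5 against 5 of 10, *Pknox2* 2 of 3 against 5 of 15 and *Pbx3* 2 of 4 against 4 of 17, while *Pbx4* went the other way with 1 of 2 against 1 of 1. Without *Meis1* the adjusted p was 0.053, and among peaks at least as wide as the median of their list it was 0.33.

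V$BRNF was marked in 23 of 29 Brn3a peaks that overlapped Isl1 (79.3%, 61.6 to 90.2%), against 49 of 86 that did not (57.0%, 46.4 to 66.9%). This did not pass after adjustment (odds ratio 2.87, 1.00 to 9.51, Fisher's exact test, p = 0.045, adjusted p = 0.067). The whole list had 77.3% and 69.8%, in the same direction. *Meis2*, with 3 of 5 against 11 of 12, and *Pbx2*, with 0 of 1 against 1 of 2, went the other way, and without *Meis2* the adjusted p was 0.016. It was also under 0.05 without *Pbx2* (0.046), without *Pknox2* (0.031) and with stratification by locus (0.037). Other settings weakened it: the adjusted p was 0.27 without *Meis1* (odds ratio 2.03) and 0.47 within 50 kb of the gene body (1.93). Among peaks at least as wide as the median of their list the odds ratio was 1.25. Unlike the comparison of openness above, this one pooled promoter Brn3a peaks with those in introns/intergenic regions. The latter made up 24 of the 29 peaks with Isl1 and 58 of the 86 without. V$BRNF was in 75.6% of Brn3a peaks in introns/intergenic regions and 30.3% of those in promoters. The part of position in the difference by Isl1 was not tested.

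For Runx3 neither comparison passed. RBS was in 22 of 25 peaks away from promoters (88.0%, 70.0 to 95.8%), against 23 of 32 promoter peaks (71.9%, 54.6 to 84.4%), with an odds ratio of 2.82 (0.599 to 18.3, Fisher's exact test, adjusted p = 0.23). In the whole list the shares with RBS were 77.0% and 64.9%, in the same direction. Runx3 peaks away from promoters overlapped ATAC in 17 of 20 cases with Brn3a or Isl1, against 3 of 5 without, and the interval of the odds ratio, 0.212 to 49.7, covers large differences either way (Fisher's exact test, adjusted p = 0.25). Only 5 Runx3 peaks away from promoters lacked both other TFs. The whole list, with far more peaks, had ATAC at 70.3% of such peaks with Brn3a or Isl1 and 46.1% without.

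**Figure D4:**
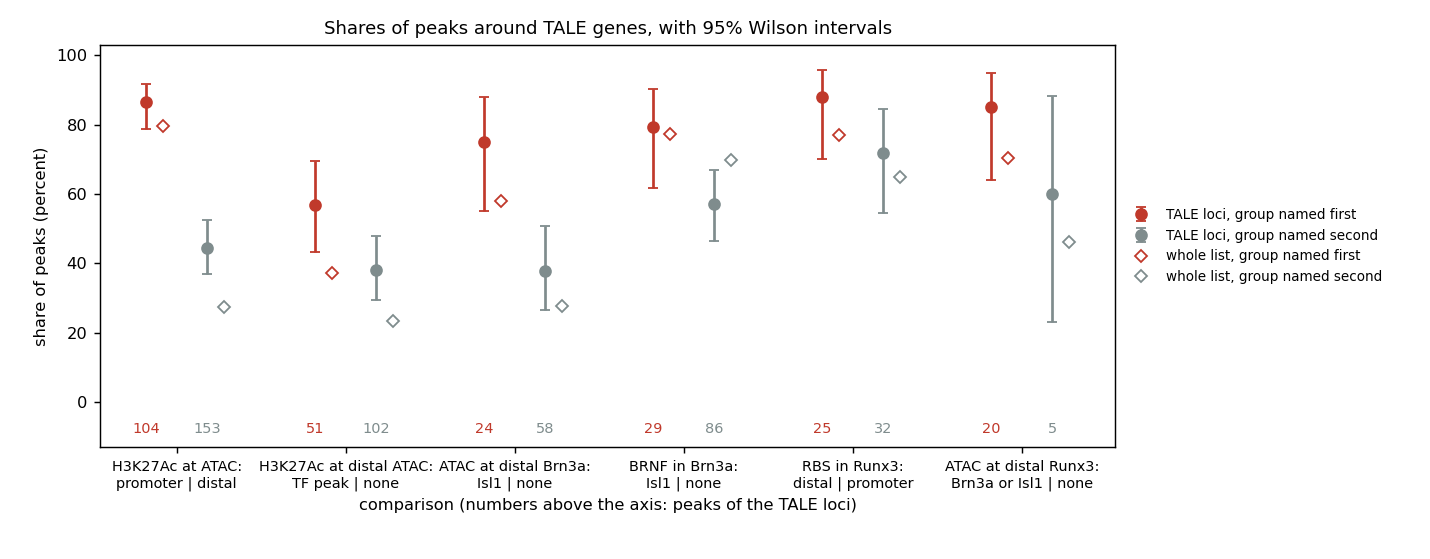
Share of peaks in percent (y axis) for the 6 comparisons (x axis), with the group named first on the left. Filled circles are the TALE loci with 95% Wilson intervals, open diamonds the whole lists, and the numbers above the axis count the peaks. The intervals of the first comparison, 78.7 to 91.8% and 36.8 to 52.4%, and those of Brn3a with and without Isl1, 55.1 to 88.0% and 26.6 to 50.8%, do not overlap.

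Among the 5 lists, with motifs disregarded, Brn3a gave the members their highest median rank in density with the 200 kb windows. Density was the number of peaks per Mb of gene body and 200 kb, and its rank is the percentile among all 21938 protein-coding genes. For Brn3a the members had a median of 27.3 peaks per Mb, with a median rank of 92.1, beside 11.4 per Mb over all genes. *Pbx3* ranked at 98.6, *Meis1* at 96.3, *Pknox2* at 95.6, *Meis2* at 92.9, *Pbx4* at 92.1 and *Meis3* at 87.7, and *Pknox1* (59.9), *Tgif1* (44.3) and *Pbx2* (34.7) were lower. For Brn3a_BRNF alone *Pbx3* ranked at 99.7, *Pknox2* at 98.4, *Meis2* at 96.8 and *Meis1* at 96.4, while no other member exceeded 39.4. With the motif required, the median rank of the members for Brn3a thus fell to 39.4, below their medians for Runx3_RBS and Isl1_LHXF. Their median density of Brn3a_BRNF was 4.55 peaks per Mb, beside 4.97 over all genes. Runx3_RBS gave another order, led by *Meis3* (98.6) and *Pbx4* (97.3), with *Tgif1* last at 11.2. For Isl1_LHXF *Pbx3* led again, at 99.0. With motifs disregarded, the other median ranks were 69.6 for ATAC, 70.1 for H3K27Ac, 64.3 for Runx3 and 74.5 for Isl1. The order of the lists depends on how peaks are assigned: in gene bodies alone Isl1 had the highest median rank (90.3, with Brn3a at 85.8), and by the nearest TSS H3K27Ac did (96.6, with Runx3 at 91.2 and Brn3a at 86.9). Windows of neighbouring genes share peaks, so these ranks are descriptions and carry no test.

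**Figure D5:**
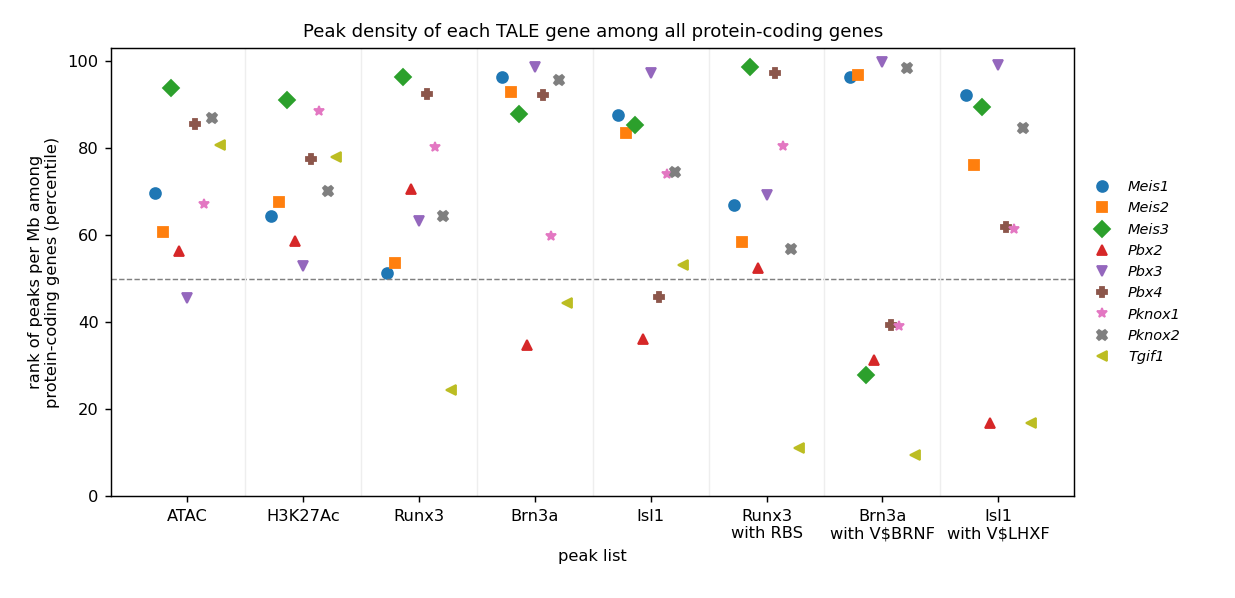
Rank of the peak density of each TALE gene among 21938 protein-coding genes in percentiles (y axis) for each peak list and for TF peaks with their own motif (x axis), with the dashed line at 50. For Brn3a with V$BRNF the members split into 4 genes at 96.4 or above and 5 at 39.4 or below.

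The TFs were combined in the members' windows as follows. Merging TF peaks that overlap gave 145 sites, of which 30 held Runx3 and Brn3a without Isl1 (20.7%), beside 9.23% in the series, and 10 held all 3 TFs (6.90%), beside 8.48%. Of the 30, 18 lay in promoters and 26 carried both ATAC and H3K27Ac. Brn3a alone accounted for 54 sites (37.2%, beside 42.7% in the series), of which 11 carried both marks. Brn3a with Isl1 accounted for 18 (12.4%, beside 14.2%), of which 3 did. The share with both marks was not computed for the series, so each mark is given apart. In the members ATAC and H3K27Ac lay at 28 and 26 of the 30 sites with Runx3 and Brn3a. They lay at 18 and 12 of the 54 with Brn3a alone, and at 10 and 5 of the 18 with Brn3a and Isl1. In the series ATAC and H3K27Ac lay at 86.9% and 77.8% of sites with Runx3 and Brn3a, and at 29.6% and 16.4% of those with Brn3a alone. For Brn3a with Isl1 the series shares were 48.8% and 17.1%. With motifs required of every TF, 11 of 112 sites held Runx3_RBS and Brn3a_BRNF (9.82%), beside 3.57% in the series.

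The genes whose peak counts were most like those of the members with the most Runx3_RBS peaks were found by the distance between log2 densities over the 5 lists. *Pbx3* and *Pknox1* were tied at 5 Runx3_RBS peaks, and *Pbx3* was taken by its lower chromosome number. For *Meis3* they were *Diaph1* (0.257), *C2cd2l* (0.272) and *Pdzd3* (0.298), and for *Pbx4* they were *Mnt* (0.129), *Mettl16* (0.200) and *Tsr1* (0.201), all 3 on chromosome 11. For *Pbx3* they were *Myo18b* (0.147), *Arl4c* (0.305) and *Smyd3* (0.343). *Myo18b* had 23 ATAC, 14 H3K27Ac, 6 Runx3, 24 Brn3a and 12 Isl1 peaks in its window.

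Sequences to which TALE proteins themselves bind were searched on both strands of the peaks. TGACAG was in 16 of 57 Runx3 peaks (28.1%, 18.1 to 40.8%), beside 21.6% of all Runx3 peaks, in 25 of 115 Brn3a peaks (21.7%, 15.2 to 30.1%), beside 21.2%, and in 12 of 46 Isl1 peaks (26.1%, 15.6 to 40.3%), beside 23.9%. In ATAC peaks it was found in 53 of 257 (20.6%, 16.1 to 26.0%), beside 18.2%. TGATTNAT, read by Pbx with Hox, was in 14 of 115 Brn3a peaks (12.2%), beside 12.2% of the list, and TGATTGAC, read by Pbx with Meis, in 4 of 115 (3.48%, 1.36 to 8.60%), beside 1.14%. In H3K27Ac peaks TGATTGAC was in 8 of 156 (5.13%, 2.62 to 9.79%), beside 1.64%. H3K27Ac peaks of the members were also wider than the list, which raises the number of matches, and the part of width in this difference was not tested.

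The sorted cells were checked against lists of marker genes. An ATAC peak lay in an own promoter of 7 of 7 markers of TrkC neurons and an H3K27Ac peak in 6 of 7. The counts were 2 and 1 of 4 for glia and neural crest, 4 and 2 of 4 for mesenchyme, and 0 and 0 for the 5 myeloid and lymphoid and the 3 erythroid markers. Open promoters of mesenchyme markers (*Prrx1*, *Col1a1*, *Twist1* and *Pdgfra*) thus stand beside every count above, and their part in it was not tested. A peak in part of the cells and a peak in all of them cannot be told apart in such lists.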

How the data were processed

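Open chromatin was mapped by ATAC-seq and binding by CUT&RUN in E11.5 TrkC neurons. The authors trimmed reads with Cutadapt, aligned them to mm10, removed duplicates from the ATAC reads with Picard 1.119, called peaks with MACS2 (CUT&RUN against rabbit serum) and kept consensus peaks found in at least 2 of 3 ATAC, 3 of 5 H3K27Ac, 4 of 8 Runx3, 2 of 2 Brn3a and 2 of 3 Isl1 samples. The deposited files hold start and end positions, a number of RBS, and marks for V$BRNF and V$LHXF, but no value per sample.

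Starts were read as 1-based, since RBS counted in GRCm38.p6 then equalled the deposited number for 13443 of 13443 Runx3 peaks. Genes came from GENCODE M21, and 1 Brn3a peak off the nuclear chromosomes was left out. Peaks narrower than 500 bp (ATAC) or 300 bp (other lists) were extended about their midpoint to that width, and any shared base counted as an overlap. Shares were compared by two-sided Fisher's exact tests with Benjamini-Hochberg adjustment over 6 tests. Alternatives were other overlap rules, promoter limits and windows, wide peaks only, stratification by locus, and leaving out each gene. Named were all 9 members, Runx3 peaks in their promoters, triple sites, the Runx3 peak with the most RBS per window and the widest H3K27Ac peak per gene body. Members, lists and tests were chosen with earlier results of these data known. The code was tested on simulated data (300 of 300 exact tests equalled scipy's). Python 3.11.15, numpy 2.4.6, pandas 2.3.3, scipy 1.17.1 and pysam 0.24.0 were used.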

Additional observations from a re-analysis of the deposited data

How the results depend on the processing

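No paired analysis was possible because the deposited lists pool the replicates and hold no column of a single sample. The 6 comparisons kept their direction under every alternative except the openness of Runx3 peaks with Brn3a or Isl1, whose odds ratio was 0 among peaks at least as wide as the median of their list (8 of 10 against 4 of 4). RBS by position among wide peaks and ATAC at Runx3 peaks when stratified gave no finite odds ratio. H3K27Ac at distal ATAC peaks with a TF peak passed the threshold with no widening (odds ratio 2.3), with an overlap of 50% of the shorter peak (2.4) and when stratified by locus (2.41), and V$BRNF with Isl1 passed when stratified (4.44). Neither passed within 50 kb, with odds ratios of 1.53 for H3K27Ac with a TF peak and 1.93 for V$BRNF with Isl1. The same held among wide peaks (3.09 and 1.25). ATAC at Brn3a peaks with Isl1 no longer passed among wide peaks (3.37). When each gene was left out in turn, the odds ratios ranged from 7.29 to 9.8 for H3K27Ac at promoters, 1.71 to 2.53 for H3K27Ac with a TF, 3.88 to 5.69 for ATAC with Isl1, 2.03 to 4.67 for V$BRNF with Isl1, 1.89 to 4.89 for RBS and 1.62 to 7.99 for ATAC at Runx3 peaks. The median rank of the members moved by more than their spread for peak numbers by nearest TSS (ATAC 86.7, H3K27Ac 96.6, Runx3 91.2) and for H3K27Ac within 50 kb (85.9). The counts of overlapping motif-bearing peaks (14 Runx3_RBS with Brn3a_BRNF, 21 Brn3a_BRNF with Isl1_LHXF and 3 with all) were equal under both other overlap rules. The cause of these changes was not tested. A stricter peak threshold could not be tried, since the lists hold no score.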

Other observations

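Other TALE homeobox genes, the Iroquois genes *Irx1* to *Irx6*, *Mkx* and *Tgif2*, had open promoters with few TF peaks. Of these 8 genes 7 had an ATAC peak in an own promoter (beside 64.8% of all protein-coding genes), 5 an H3K27Ac peak (58.3%) and 1 (*Tgif2*) a Runx3 peak (27.1%). No Brn3a or Isl1 peak lay in an own promoter of any of them, beside 22.2% and 5.42% of all genes. In their windows the median was 23.3 Brn3a and 14.5 Isl1 peaks per Mb, against 30.4 for ATAC. Over all protein-coding genes the medians were 11.4, 4.8 and 37.8. *Irx3*, a patterning factor, had 25 Brn3a, 15 Isl1 and 6 Runx3 peaks in its window with 19 ATAC peaks, and *Irx6* had 16 Brn3a, 13 Isl1 and 5 Runx3 peaks with 14 ATAC peaks. *Irx3*, *Irx5* and *Irx6* lie on chromosome 8 and *Irx1*, *Irx2* and *Irx4* on chromosome 13, so within each cluster windows can share peaks. These genes were not compared with the 9 genes by a test.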
